A study of Thlaspi arvense with 10 samples.

Results

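Of 27148 gene models counted in cultured pennycress embryos, 193 stood at least 8 times higher in the WRI1 and DGAT1 overexpression line than in wild type (WT). They were chosen by their CPM (counts scaled to a common library total of 1e6): a line mean of at least 5 CPM, a mean in the line of at least 8 times the WT mean, and a lowest line library above the highest WT library. A ratio below is that of these means. The members fell into 8 models silent in WT, with no count in any of its 5 libraries, and 185 that had a base level there. Because the contrast of the line with WT chose the members, its size is given as a description and carries no test.

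Pennycress (Thlaspi arvense) is an oilseed of the same family as Arabidopsis, and the embryos were of the cultivar Spring32. Embryos were removed from pods about 15 days after flowering, and 15 of them shared a flask for 10 days in liquid medium under continuous light. WT was compared with the line WD3, which overexpresses WRI1 and DGAT1, with 5 libraries of poly(A) RNA in each group. The sources used here do not give the promoter, the source species of the transgenes or the number of insertions in WD3. WD3 is a single line, so what both genes do together cannot be told apart from what is particular to this line. Whether each library stems from its own flask or plant is not in the labels. In bulk embryo RNA, more cells of a kind and more RNA per cell cannot be told apart.

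WRI1 (WRINKLED1) is an AP2-type transcription factor that, in Arabidopsis seeds, switches on genes of glycolysis, plastid pyruvate supply and fatty acid synthesis. DGAT1 is the enzyme of the endoplasmic reticulum that joins an acyl chain to diacylglycerol, the last step in making triacylglycerol, the storage oil of the seed. WRI1 thus bears on the making of fatty acids in the plastid, and DGAT1 on the last step by which they enter oil. The files do not pair the identifiers with gene names, so neither gene is placed among the members and no role is given to any of them. The identity of the tissue was likewise not checked against embryo, endosperm or seed coat markers. The identifiers of the first member of each class are printed, and the others are called by their rank in mean line CPM within their class. CPM is not scaled to transcript length, so a rank orders counts and not molecules.

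The WT libraries held between 68756445 and 89432933 counts and those of the line between 55525341 and 76983434. A line mean of 5 CPM or more was reached by 12473 models, of which the 193 members are 1.55%. Among the same 12473 models, 39.9% had a lowest line library above the highest WT library. The last condition removed no model, since all 193 that passed the other conditions also had groups that did not overlap. All 193 were tested and called higher in the line by edgeR's quasi-likelihood test, where 29.6% of 17471 tested models were called higher, and nothing is read from this since the same contrast chose them. With TMM, the scaling of this test, 5173 models were called higher and 5839 lower, with library totals alone 6716 and 3988, and with upper-quartile factors 4173 and 7140. The fitted change of 164 members was at least 8-fold, which held for 1.91% of the tested models as a called rise. The median fitted log2 change was 3.72 over the members and -0.04 over all tested models.

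The number of members depended on the scaling. With library totals, the median tested model stood at a log2 ratio of 0.13 in favour of the line. Effective library sizes by TMM, a scaling that sets the bulk of the models level between libraries, left 157 members, all of them among the 193. With upper-quartile factors 131 were left, again all among the 193. The list of 8 silent models was the same length under TMM. With upper-quartile factors it held 7, as the eighth fell to 4.99 CPM in the line. The members just inside the fold limit stood at 57.8 CPM in the line and 7.16 CPM in WT, a ratio of 8.07, and at 63.7 and 7.85 CPM, a ratio of 8.12. Just outside it lay a model at 1026 CPM in the line and 128 CPM in WT, a ratio of 7.99, and one at 24.3 and 3.05 CPM, a ratio of 7.97. At the limit of 5 CPM, the members just inside stood at 5.05 CPM in the line, with ratios of 12.4 and 76.9, which were 38.8 without WT replicate 5 and 211 without WT replicate 2. The models just outside had a mean line CPM of 4.98, with a ratio of 117, and of 4.93, with no count in WT.

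**Figure D1:**
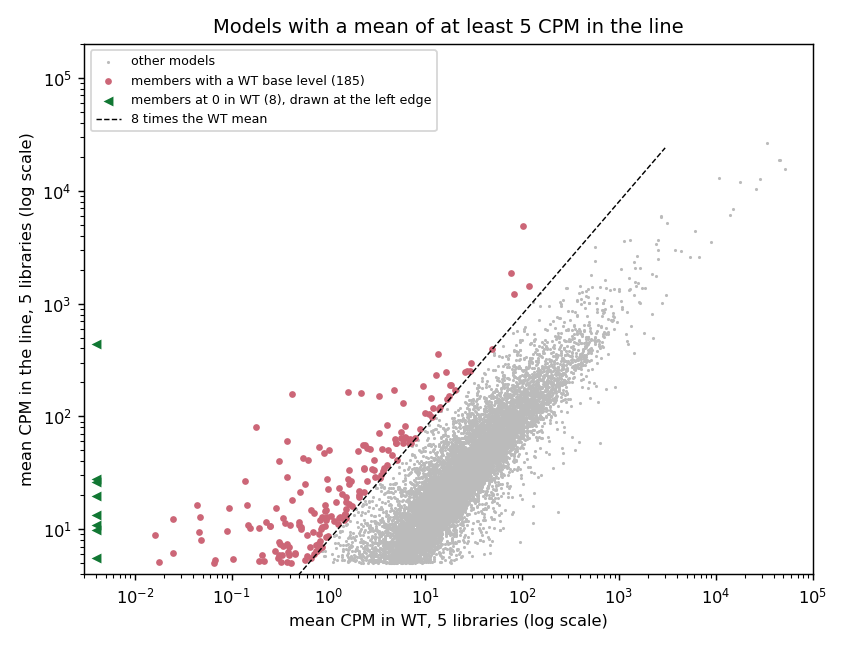
Mean CPM in the line against mean CPM in WT (5 libraries each, log scales) for the 12473 models with at least 5 CPM in the line. The 185 members with a WT base level lie above the line of 8 times the WT mean, and the 8 members at 0 in WT are drawn at the left edge, from 5.59 to 443 CPM in the line.

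The members together took a small part of all counts in both groups. They held 0.128%, 0.0863%, 0.141%, 0.0767% and 0.0833% of all counts in WT replicates 1 to 5. In the line the shares were 1.99%, 1.97%, 1.75%, 1.80% and 1.82%. The WT mean was 0.103% ± 0.0294 and that of the line 1.87% ± 0.107 (SD, n = 5 each). WT replicates 1 and 3 were the highest in WT, and the line libraries lay close together. Abundance was uneven: the first 4 members with a WT base level made up 50.1% ± 3.01 of the members' counts in the line, and the first alone 26.1% ± 1.5005. The remaining 189 members summed to 0.0652% ± 0.00882 of all counts in WT and 0.928% ± 0.0260 in the line.

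**Figure D2:**
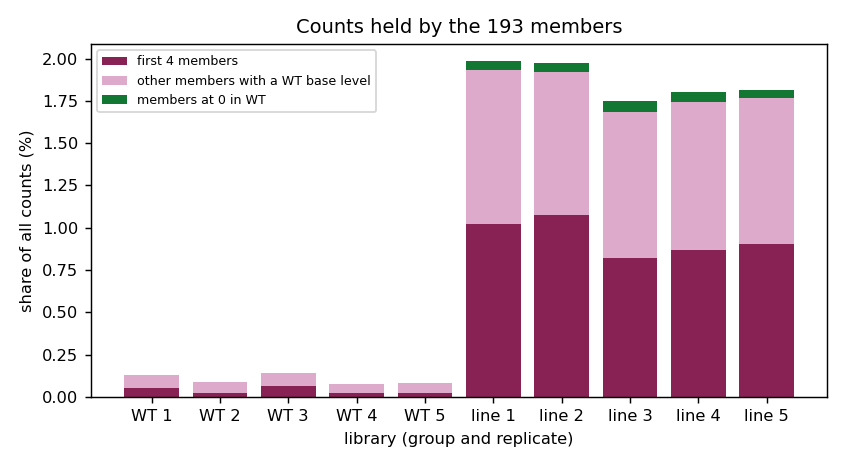
Share of all counts (%) held by the 193 members in each of the 10 libraries, split into the first 4 members with a WT base level, the other 181 with a base level and the 8 at 0 in WT. The 5 line libraries lie between 1.75% and 1.99%, and the WT libraries between 0.0767% and 0.141%.

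The members spanned a wide range of levels in the line. At 5 to 10, 10 to 50 and 50 CPM or more lay 47, 88 and 58 of them. Of the 12280 other models with at least 5 CPM in the line, 1936, 6549 and 3795 did. In the line, 47 had a mean of 5 to 10 CPM, 115 of 10 to 100 CPM, 27 of 100 to 1000 CPM and 4 of over 1000 CPM. The median member stood at 19.3 CPM. By mean level, 20 members were among the first 1000 of all models in the line and 4 among the first 100, and none was among the first 1000 in WT.

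Every line library and no WT library held counts of the 8 silent members. The first, MSTRG.5481, stood well apart from the other 7. It had 26245, 30963, 39924, 26367 and 21785 counts in line replicates 1 to 5, or 421, 402, 525, 475 and 391 CPM, with a mean of 443 ± 56.1 CPM (SD, n = 5). Its level in the line ranked 243 among all models. Against a floor of 3 counts per WT library, its lowest line library was at least 8954-fold higher than the highest floor, 0.0436 CPM. The floor covers counting error only.

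The other 7 silent members stood between 5.59 and 27.8 CPM in the line. The second was at 25.9, 28.3, 25.0, 28.1 and 31.6 CPM in line replicates 1 to 5, with a mean of 27.8 ± 2.55. The third was at 26.6, 21.8, 26.3, 30.1 and 27.2 CPM, with a mean of 26.4 ± 2.96. The second and the third did not differ beyond their spread over the libraries. The fourth stood at 20.6, 18.6, 20.4, 22.5 and 17.1 CPM, with a mean of 19.8 ± 2.05 CPM. The fifth stood at 10.9, 11.1, 16.02, 14.6 and 14.3 CPM, with a mean of 13.4 ± 2.28 CPM. These 2 are separate in level in every library.

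At the lower end, the sixth and seventh overlapped, with 9.76 to 12.2 and 7.56 to 11.2 CPM over the line libraries. The eighth was the lowest in all of them, at 4.27, 4.72, 7.62, 5.01 and 6.35 CPM. Set against the same floor, silent members 2 to 8 were at least 97.8-fold to 574-fold higher in the line. Their coefficients of variation (SD over mean) in the line lay between 9.18% and 24.6%. They are the upper end of a longer series: 59 more models had no count in WT and at least 1 in every line library but stayed under 5 CPM, with a median of 0.457 CPM.

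Between the silent members and a steady base level lay a transition. Of the members with a base level, 165 had counts in all 5 WT libraries, 8 in 4, 8 in 3, 2 in 2 and 2 in 1. The 20 that were missing from at least 1 WT library had WT means of up to 0.406 CPM and line means of up to 80.7 CPM. In WT replicates 1 to 5, 177, 176, 175, 182 and 177 of the 193 members had at least 1 count, the most in replicate 4, the largest library.

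The member with the largest ratio belongs to this transition. It is the 145th with a base level and had 6 counts in WT, all in replicate 1, at 0.0809 CPM. In the line it stood at 9.40, 9.94, 7.99, 8.03 and 9.38 CPM. Without WT replicate 1 it would be silent in WT. The ratio of the means was 553, and that of the pooled counts 562 with an exact 95% counting interval from 258 to 1532. This interval covers counting error only. It leaves out the spread between libraries and the choice of this member for its ratio, so it is no test of the rise. Since low values in the table pile up at multiples of 4 (26.9% to 37.7% of the values from 1 to 12 per library, where an even spread gives 25%), 1 fragment may stand for several counts, and both the floor and this interval are then too narrow.

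The ratio was larger the lower a member stood in WT, which the rule and the ratio largely set. The WT mean is the divisor of the ratio, and every member had to reach 5 CPM in the line. The ratios by WT level are thus a description only. The 12 members with a WT mean under 0.1 CPM had ratios from 76.9 to 553 with a median of 227. The 79 with 0.1 to 1 CPM in WT had a median ratio of 19.4, the 70 with 1 to 10 CPM one of 11.5, and the 24 with 10 CPM or more one of 9.94. In all, 51 ratios lay between 8 and 10, 54 between 10 and 16, 39 between 16 and 32, 24 between 32 and 100, and 17 at 100 or more. A high level in the line and a high ratio met in few members. The 20th stood at 160, 160, 109, 161 and 201 CPM in line replicates 1 to 5 and between 0.145 and 0.728 CPM in WT, a ratio of 377. The 34th stood between 75.6 and 90.0 CPM in the line and between 0 and 0.320 CPM in WT, a ratio of 457.

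The most abundant member with a base level was MSTRG.5121. It stood at 94.2, 113, 89.6, 114 and 106 CPM in WT replicates 1 to 5. In line replicates 1 to 5 it stood at 4739, 5096, 4522, 4891 and 5046 CPM. The means were 103 ± 11.02 and 4859 ± 235 CPM (SD, n = 5 each), a ratio of 47.0, and both groups were tight. By mean level it moved from rank 1275 in WT to rank 14 in the line.

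The second was equally even, at 73.0, 75.8, 73.9, 78.8 and 81.6 CPM in WT and 1749, 2107, 1776, 1780 and 1941 CPM in the line. Its ratio of means was 24.4. The third and the fourth reached the same order of level in the line but varied widely in both groups. The third stood at 225, 15.2, 333, 6.66 and 8.43 CPM in WT replicates 1 to 5. In the line it stood at 1694, 2549, 697, 783 and 1442 CPM. Its ratio of means was 12.2, and without WT replicate 3 it was 22.5.

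The fourth member stood at 147, 35.5, 170, 23.0 and 31.8 CPM in WT replicates 1 to 5. In the line it stood at 2039, 1012, 1199, 1227 and 615 CPM, a ratio of means of 14.9. In both of these members WT replicates 1 and 3 were the high ones, and the lowest line library was only 2.09 and 3.61 times the highest WT library. Their line levels overlapped, and the order of the line libraries differed between them.

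Members 5 to 10 stood between 248 and 395 CPM in the line, with ratios of 8.14 to 26.3. The fifth had 64.0, 43.4, 61.9, 35.6 and 37.8 CPM in WT and 368, 406, 386, 401 and 414 CPM in the line, and WT replicates 1 and 3 were its highest in WT. The sixth had 11.5 to 16.2 CPM in WT and 322 to 392 CPM in the line, the widest step of the 6. The seventh had 24.8 to 34.2 CPM in WT and 290 to 322 CPM in the line. In these 3 the line libraries were even, with coefficients of variation of 4.63%, 6.93% and 4.45%.

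The eighth had 50.4, 18.3, 48.6, 15.1 and 10.97 CPM in WT and 237 to 268 CPM in the line. The ninth had 34.3, 23.1, 36.2, 23.6 and 17.4 CPM in WT and 236 to 294 CPM in the line. Both were again highest in WT replicates 1 and 3. The tenth had 16.02 to 40.4 CPM in WT, highest in replicate 5, and 171 to 283 CPM in the line. The first, the second and the seventh went the other way, with WT replicates 1 and 3 both below replicates 2, 4 and 5. With TMM scaling the fifth and the eighth fell below the limit, at ratios of 7.10 and 7.61.

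**Figure D3:**
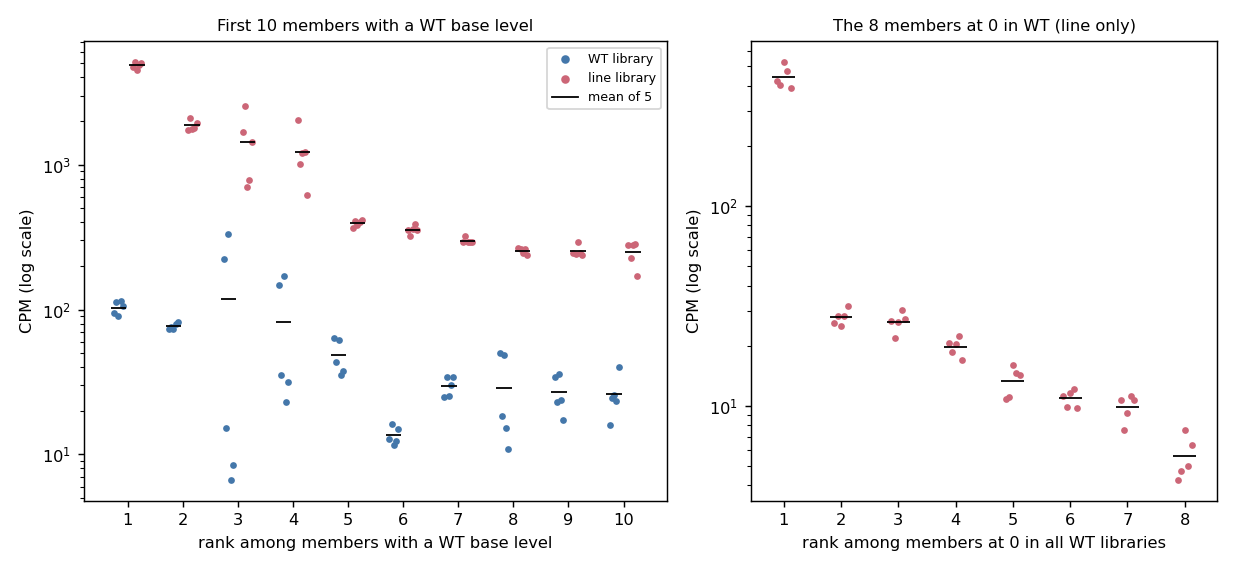
CPM (log scale) in each library, with the mean of 5 as a bar, for the first 10 members with a WT base level (WT and line) and for the 8 members at 0 in WT (line only). The first member stands at 89.6 to 114 CPM in WT and at 4522 to 5096 CPM in the line. In members 3, 4, 5, 8 and 9 WT replicates 1 and 3 are the highest in WT, and in members 1, 2 and 7 the lowest.

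The WT libraries were not alike for some of these models, nor for some of the other models, as the shares below show. WT replicates 1 and 3 are set against replicates 2, 4 and 5 here because they stood apart in the members' summed share. Without the first 4 members with a base level that share was 0.0740% and 0.0746% in replicates 1 and 3. In replicates 2, 4 and 5 it was then 0.0623%, 0.0544% and 0.0606%. The division is taken from the members' own WT values. The rule also used those values, so the shares below are a description, and nothing is read from their difference from other models. Of the 94 members that reached a WT mean of 1 CPM, 28 (29.8%) had both replicates 1 and 3 above the other 3, and 21 (22.3%) had both below. Among 14981 other models at that level, 16.9% and 45.3% did, and their median ratio of replicates 1 and 3 to the rest was 0.891. These shares move with the scaling: with TMM, chosen after seeing the data, they were 37.2% and 10.6% for the members and 26.1% and 23.6% for the others, whose median ratio was then 0.985. With library totals, a mean at least 2 times higher in replicates 1 and 3 was found for 19 of the 94 (20.2%) and for 5.52% of the other models. With TMM these shares were 21.3% and 6.84%. Split by level with library totals, this was 11 of 70 members at 1 to 10 CPM (15.7%, against 6.14% of others) and 8 of 24 at 10 CPM or more (33.3%, against 5.20%). A mean at least 2 times lower in replicates 1 and 3 was found for 2 of the 94 (2.13%) and for 220 of the others (1.47%).

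For the members that split WT, the ratio depended on the WT libraries used. The third member stood at 279 CPM over WT replicates 1 and 3 and at 10.1 CPM over replicates 2, 4 and 5, so that its mean in the line was 5.13 and 142 times as high. For the fourth these ratios were 7.68 and 40.5, and for the eighth 5.15 and 17.2. The 62nd had 11.5 and 11.96 CPM in replicates 1 and 3 and 0.902, 0.671 and 0.427 CPM in replicates 2, 4 and 5, with 37.2 to 47.4 CPM in the line. The 35th had 17.6 and 20.6 CPM against 2.63, 2.39 and 1.10 CPM, with 74.1 to 82.2 CPM in the line. In both, WT replicates 1 and 3 lay between the other WT libraries and the line. Applied without WT replicates 1 and 3, the rule gave 284 members, 179 of them among the 193. Applied with replicates 1 and 3 as the only WT libraries, it gave 208, of which 166 were shared.

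**Figure D4:**
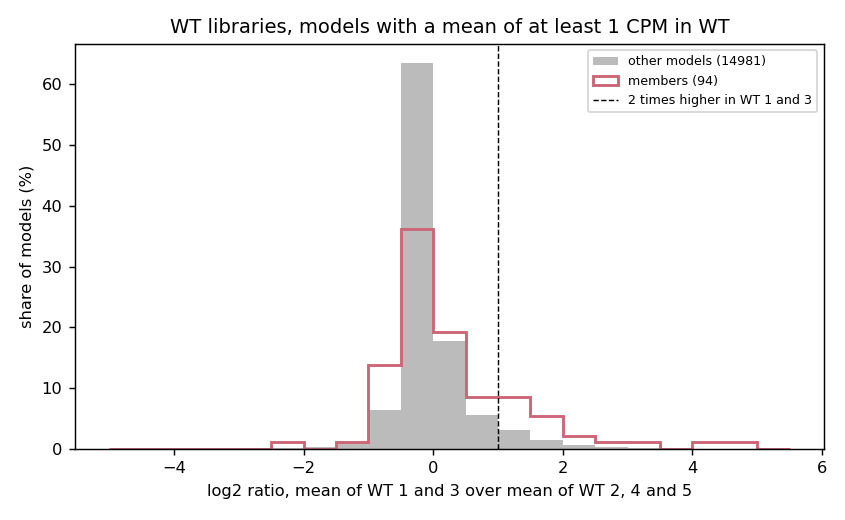
Log2 ratio of the mean CPM in WT replicates 1 and 3 to that in replicates 2, 4 and 5, as a share of models (%), for 94 members and 14981 other models at a WT mean of 1 CPM or more. Beyond the dashed line, 2 times higher in replicates 1 and 3, lie 20.2% of the members and 5.52% of the others.

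The spread among the line libraries is given beside that of other models, by level for the coefficient of variation. The same line values chose the members, so nothing is read from the difference. At 5 to 10 CPM the median coefficient of variation over the 5 line libraries was 16.98% for 47 members and 12.6% for 1936 other models. At 10 to 50 CPM it was 12.2% for 88 members and 8.29% for 6549 others, and at 50 CPM or more 10.2% for 58 members and 6.55% for 3795 others. Over all levels from 5 CPM up, and so not matched by level, the highest line library was at least 3 times the lowest in 12 members (6.22%). The same held for 51 of 12280 other models (0.415%). None of the 12 was silent in WT.

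The 12 variable members were highest in line replicate 1 in 6 cases, in replicate 3 in 4 and in replicate 2 in 2, and lowest in replicate 5 in 8 cases. No such split is given here for the 51 other models with that spread, so nothing is read from it. Over all members, replicate 5 was in contrast the highest library most often, in 65 of 193 (33.7%, against 28.2% of other models). The member of rank 169 spread the most, at 14.1, 3.27, 5.98, 4.86 and 1.31 CPM in line replicates 1 to 5. The member of rank 175 stood at 6.67, 12.8, 2.16, 1.33 and 4.63 CPM in the line and at 0.465 to 1.06 CPM in WT, so its lowest line library was 1.26 times its highest WT library, the narrowest gap of all members. The 42nd stood at 117, 45.0, 55.7, 73.1 and 24.1 CPM in the line and at 2.91 to 7.13 CPM in WT. These 3 were picked out after their values were seen.

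**Figure D5:**
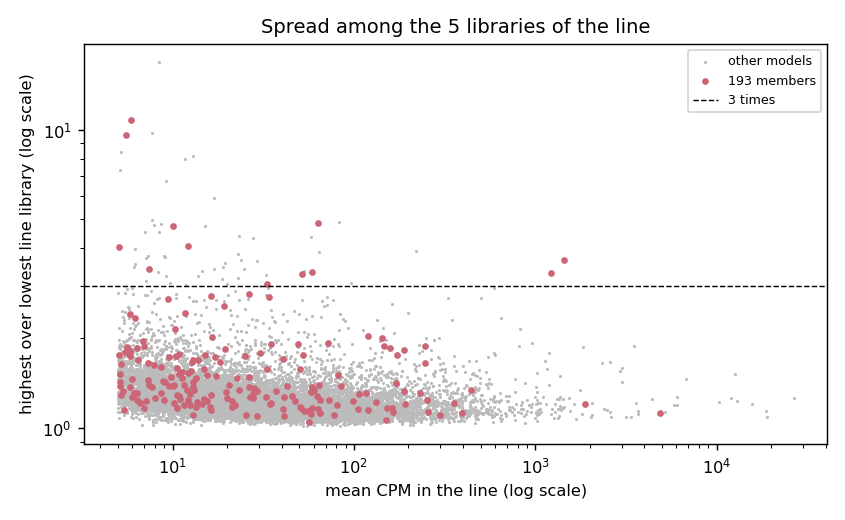
Highest over lowest of the 5 line libraries against mean CPM in the line (log scales) for the 193 members and 12280 other models. Above the dashed line at 3 times lie 12 members, among them the third and the fourth in level.

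The step was also counted between single libraries. In 88 of the 185 members with a base level the lowest line library was at least 8 times the highest WT library, in 17 it was under 4 times and in 2 under 2 times. With the 8 silent members, 96 of the 193 thus keep the 8-fold step in every pairing of a line with a WT library. Leaving out 1 library moved the ratio of 22 members by more than 1.5 times. In 2 of them no WT count was left, in the 145th without WT replicate 1 and in the 120th without WT replicate 4. Of the other 20, 1 was among the first 10, the third described above.

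All 193 members carry MSTRG numbers, the identifiers given to models by the assembler StringTie, as did 12471 of the 12473 models with at least 5 CPM in the line. Some members have consecutive numbers: 25 of them form 11 pairs and 1 set of 3. The sources used here give no positions for the models, and whether such models share reads or parts of 1 transcript was not tested. The second member with a base level is in such a pair with the 19th, which stood at 1.73 to 2.56 CPM in WT and 153 to 178 CPM in the line, a ratio of 75.5. The fifth and the eighth silent members form another pair, and both were highest in line replicate 3. The sixth silent member is paired with the 100th of the other class, which had 0 to 0.0674 CPM in WT and 15.0 to 17.3 CPM in the line.

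In some pairs the line libraries followed the same order. The 71st and the 139th are such a pair, with 28.1, 22.3, 54.4, 44.1 and 17.8 CPM and with 9.91, 4.77, 17.2, 15.1 and 3.62 CPM in line replicates 1 to 5, and both are among the 12 variable members. Others did not: the 53rd was highest in replicate 2, at 70.2 CPM, and its partner, the 152nd, in replicate 3, at 14.6 CPM. The set of 3 joined the 21st, the 82nd and the 103rd, with line means of 152 ± 9.66, 26.5 ± 3.92 and 15.4 ± 1.249 CPM and ratios of 45.6, 194 and 53.1. Without WT replicate 2 the ratio of the 82nd was 292.

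Models numbered next to a member but not members themselves were also counted. Of 341 tested, 129 (37.8%) were called higher in the line and 104 lower with TMM, beside the 29.6% called higher of all tested models. The split turned with the scaling, tried after seeing the data. Lower calls over all 17471 tested models moved as well, at 5839 with TMM, 3988 with library totals and 7140 with upper-quartile factors. With library totals alone 152 (44.6%) were called higher and 68 lower, beside 38.4% higher of all models. With upper-quartile factors 113 (33.1%) were called higher and 131 lower, beside 23.9% of all models. At least 2-fold rises were called in 61 (17.9%) with TMM, beside 12.3% of all tested models, and in 23.5% and 14.4% with the other scalings, beside 16.1% and 10.3%. Their median log2 change with TMM was 0.05, beside -0.04 over all models.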

How the data were processed

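The authors deposited raw counts per gene model for 10 poly(A) RNA libraries, whole numbers with no normalization and a different total in each library. HISAT2 2.2.1 and StringTie 2.2.1 are named, per the submitters' processing notes. The sources used here do not name the genome build, annotation, counting step or strand setting, so reads of overlapping or antisense models cannot be told apart. Groups and replicate numbers came from the sample titles, and columns were matched through the library names.

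CPM is the count scaled to a library total of 1e6. Members were found with Python 3.11.15 and pandas 2.3.3. The members, lists and classes were chosen with earlier results of these data known. The rule for named models prints the identifier of the first member of each class by mean line CPM and describes the first 10 of each class. The gene and marker lists could not be matched and gave no result.

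The background is the quasi-likelihood F-test of edgeR 4.0.16 (R 4.3.3) on 17471 models kept by filterByExpr, with TMM and Benjamini-Hochberg adjustment at 0.05, tested on simulated data. Nothing shows that libraries are separate cultures, so p-values reflect a spread that may be technical. Alternatives used DESeq2 1.42.0, other scalings, filters and thresholds, and each library left out. Of 20 pairs of libraries within groups, none agreed within sampling noise (lowest chi-square per degree of freedom 3.83, counts divided by 4).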

Additional observations from a re-analysis of the deposited data

Results flagged for a closer look

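The values of the named members and the summed share were checked for a library far from the other 4 of its group, in 30 sets of 5, and 2 sets held one; by chance about 1 set in 20 would. The seventh member with a WT base level stood at 322 CPM in line replicate 2 against 290 to 294 CPM in the other 4. The ninth stood at 294 CPM in line replicate 3 against 236 to 245 CPM.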

How the results depend on the processing

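The number of members stayed within 1.5 times of 193 under all scalings tried (157 with TMM, 162 with RLE and 131 with upper-quartile factors), with counts divided by 4 (194) and with each library left out (187 to 200), and from 270 at a 6-fold limit to 142 at a 10-fold limit. Asking the 8-fold step of the lowest line against the highest WT library, chosen after seeing the data, gave 96. With silent set as a WT mean under 0.1 CPM, 20 members were silent in place of 8. Upper-quartile factors gave 7, and leaving out single libraries gave 8 to 10. The summed share in the line was 1.76% with TMM and 1.84% to 1.90% without single libraries. Of 234 other values of named members, 10 moved by more than their spread and none changed direction. All 10 came from another scaling. Nothing is read from this, since the members were chosen at 8-fold or more. Leaving out a WT library also cannot change the line mean of a silent member. Over all models edgeR called 11012, between 10208 and 11152 without single libraries and between 10704 and 11475 with other scalings, no filter or DESeq2. The replicate numbers are shared between groups, but deviations of same-numbered libraries correlated at -0.163 to 0.0198 and no WT library correlated best with the line library of its number, so they do not pair the samples; with a replicate block 10399 were called. The settings without WT replicates 1 and 3 or 2, 4 and 5 and with counts divided by 4 were also chosen after seeing the data. Depth limits the silent class: 3 counts are 0.0335 to 0.0436 CPM in the WT libraries.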
